A study of Mus musculus with 2 samples.

Results

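The genes of major histocompatibility complex (MHC) class II antigen presentation were followed through the endothelial cells (ECs) of mouse lungs into which melanoma cells had just arrived. The members were 7 of the 31053 genes in the files, namely Cd74, H2-Aa, H2-Ab1, H2-Eb1, H2-DMa, H2-DMb1 and Ciita. They were chosen by their measured values, since Cd74 was already known to be among the genes with the highest ratio between the libraries in general capillary cells. The contrast between the libraries in these cells therefore describes the members and tests nothing. All 7 had at least 20 UMIs in general capillary cells, the minimum for a ratio.

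MHC class II molecules carry peptides from the endosomes to the cell surface, where CD4+ T cells read them. In the mouse, H2-Aa and H2-Ab1 encode the alpha and beta chains of I-A, and H2-Eb1 encodes the beta chain of I-E, whose alpha chain is not made in C57BL/6 mice. The invariant chain, encoded by Cd74, blocks the peptide groove and leads the complex to the endosomes, where the H2-DMa and H2-DMb1 chains help to exchange peptides. Ciita, the transactivator of the pathway, is inducible by interferon gamma. B cells and dendritic cells make class II constitutively, and lung capillary ECs are also known to carry it.

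All mice were wild-type C57BL/6. The control mice received PBS and the metastatic group 200000 B16-F10 cells, a mouse melanoma line labeled with a green dye, in each case through the tail vein and 6 h before the lungs were taken. Cells stained for PECAM1 were sorted without a gate against leukocytes and loaded on 10x Genomics droplets, which give every captured molecule its own sequence tag, the unique molecular identifier (UMI). The cells of 2 mice were pooled into 1 library per group, so the spread between mice is unknown and no test between the groups was possible. Every interval below is at 95% and covers counting error alone.

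The control library held 67929614 UMIs and 7134 cells, and the metastatic library 64733724 UMIs and 6466 cells. Cells were assigned to a class by UMIs of at least 2 of its marker genes. The general capillary (gCap) class comprised 4966 control and 4474 metastatic cells, the aerocyte class 1358 and 1076, the vein class 245 and 297, and the artery class 63 and 58. Pecam1, Cdh5 and Cldn5, which mark ECs, were each detected in at least 97.8% of gCap cells in either library, and Ptprc, which marks leukocytes, in 0.846% and 1.45%. The libraries shared 16 barcodes among their called cells, 8 of them gCap in both, where 6.79 shared barcodes would be found between unrelated sets.

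The first question was how much Cd74 (ENSMUSG00000024610, GRCm38 chr18:60803848-60812652, plus strand) the classes carried in each library. In gCap cells, 4121 control UMIs gave a summed Cd74 level of 131 CPM (127–135), that is, UMIs per 1000000 UMIs of the class, and 9779 metastatic UMIs a level of 329 CPM (322–335). The metastatic level was 2.51-fold the control level, a log2 ratio of 1.33 (1.27–1.38). In aerocytes, the capillary cells specialized for gas exchange, Cd74 was at 54.5 CPM (50.3–58.97) and 135 CPM (127–142), a log2 ratio of 1.31 (1.17–1.45). Both capillary classes thus stood higher in the metastatic library by nearly the same ratio, although aerocytes started from a lower level.

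Vein cells had the highest Cd74 level of the 4 classes in both libraries, at 256 CPM (235–278) and 469 CPM (443–497). Their log2 ratio was 0.87 (0.73–1.02). Artery cells had the lowest, at 20.3 CPM (9.73–37.3) on 10 UMIs and 34.1 CPM (19.5–55.3) on 16 UMIs, with a log2 ratio of 0.75 (-0.48 to 2.05). The order artery, aerocyte, gCap, vein was the same in both libraries, and the intervals of neighbors in it did not overlap. Whether the classes differ in their ratios was not tested.

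T or NK cells, which lack class II in mice, served as the background and B cells as a class that carries it. Cd74 was at 14.4 CPM (2.97–42.1) and 16.7 CPM (4.54–42.7) in the T or NK cells, on 3 and 4 UMIs. The artery level was within these intervals in both libraries, so artery Cd74 was not separated from the background at this depth. The B cells of the control library had a Cd74 level of 12191 CPM (11738–12656) and those of the metastatic library 13451 CPM (12967–13949), with a log2 ratio of 0.14 (0.07–0.22). Cd74 in gCap cells was therefore above the T or NK level and far below the level of B cells in each library. Barcodes with 11 to 200 UMIs that appeared in 1 library only, taken as free RNA, held Cd74 at 438 and 592 CPM, and at the 2.79% and 3.22% of free RNA estimated from epithelial and neutrophil genes they would account for 12.2 and 19.1 CPM of Cd74 in gCap cells. This profile was chosen after seeing the data. The planned profile, all barcodes with 11 to 50 UMIs, gave 28.4% and 25.7% of free RNA and 251 and 178 CPM of Cd74, which is more than the 131 CPM measured in control gCap cells, so the part of free RNA in the gCap level is not settled by these estimates.

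**Figure D1:**
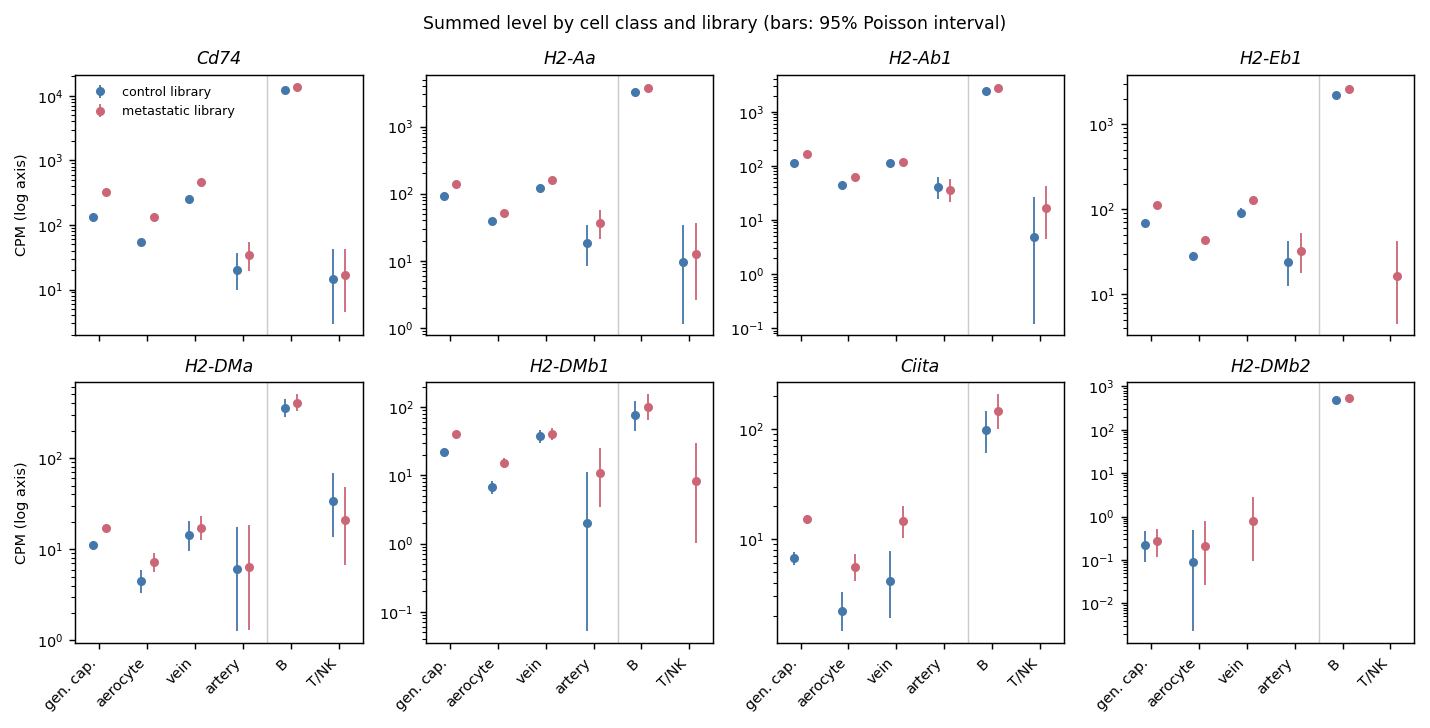
Summed level of each of the 7 members and of H2-DMb2 (CPM, log axis) in the 4 endothelial classes, B cells and T or NK cells of the control library (blue) and the metastatic library (red). Points are 1 library each, bars are exact Poisson intervals, and a class with no UMI of a gene has no point. Cd74 climbed from artery to vein cells in both libraries, and B cells stood above all endothelial classes for every gene drawn.

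Of the genes with at least 20 UMIs in gCap cells, 8.18% had a log2 ratio of at least 0.5, and the members, chosen on this contrast, had 7 of 7 past that fold. The median log2 ratio was 0.68 over the members and 0.02 over the 13261 genes. Ordered from the highest ratio, Cd74 was at rank 120, Ciita at 169 and H2-DMb1 at 366, and the other members were at ranks 630 to 1000. When ECs that also met the rule of a leukocyte or epithelial class were kept (62 control and 64 metastatic cells), the log2 ratio of Cd74 was 0.91, and H2-Aa and H2-Ab1, at 0.47 and 0.46, no longer passed the fold, which 8.13% of tested genes then passed. With TMM scaling H2-Ab1 was at 0.4997, and 6 members and 7.53% of tested genes passed.

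The chains that form the class II dimer were taken next. In gCap cells of the control and the metastatic library, H2-Aa was at 92.7 and 139 CPM (2911 and 4137 UMIs), a log2 ratio of 0.59 (0.52–0.65). H2-Ab1 was at 115 and 165 CPM (3604 and 4919 UMIs), a log2 ratio of 0.53 (0.47–0.59). H2-Eb1, the I-E beta chain, was at 69.5 and 111 CPM (2184 and 3303 UMIs), a log2 ratio of 0.68 (0.60–0.75). The ratios of the 3 chains lay close together and below that of Cd74. Summed, the chains came to 277 and 415 CPM in gCap cells, a log2 ratio of 0.59 (0.55–0.63).

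H2-Aa (ENSMUSG00000036594, chr17:34282744-34287823, minus strand), H2-Ab1 (ENSMUSG00000073421, chr17:34257689-34269419, plus strand) and H2-Eb1 (ENSMUSG00000060586, chr17:34305867-34316674, plus strand) are protein-coding neighbors on GRCm38, together with H2-DMa (ENSMUSG00000037649, chr17:34119541-34139101, plus strand) and H2-DMb1 (ENSMUSG00000079547, chr17:34153072-34160230, plus strand). Class II promoters are known for an X box, bound by the RFX complex, and a Y box, bound by NF-Y. Whether these boxes bear on the ratios of the members was not tested. The 120 bases before the start of 3 members follow, 5′ to 3′ on the strand of the gene, from RefSeq on GRCm38.p6, with matches to AACTGATG (an X box) and TGATTGG (a Y box) in capitals. The RefSeq start of H2-DMb1 lies downstream of the annotated gene start given above, so that its window falls almost wholly inside that gene, whereas the windows of H2-Eb1 and H2-Aa end at the gene start.
H2-Eb1 (chr17:34305747-34305866, plus strand): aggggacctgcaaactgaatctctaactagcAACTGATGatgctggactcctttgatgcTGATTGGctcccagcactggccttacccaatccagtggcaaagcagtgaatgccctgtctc
H2-DMb1 (chr17:34153071-34153190, plus strand): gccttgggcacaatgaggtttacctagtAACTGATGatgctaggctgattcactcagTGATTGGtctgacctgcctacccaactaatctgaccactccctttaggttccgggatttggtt
H2-Aa (chr17:34287824-34287943, minus strand): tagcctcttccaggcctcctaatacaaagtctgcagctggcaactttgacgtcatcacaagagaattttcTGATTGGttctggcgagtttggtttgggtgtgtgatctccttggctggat

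Both sets of letters were chosen after these sequences had been seen, and both strands were searched over 250 bases before each start. H2-Eb1 and H2-DMb1 held the X letters 89 and 92 bases before the start and the Y letters 61 and 63 bases before it, so that the matches did not overlap and lay 20 and 21 bases apart. H2-Aa held the Y letters alone, 50 bases before its start, and neither set was found before the starts listed for H2-DMa. Those starts lie inside the H2-DMa gene given above, downstream of its annotated start, so the bases before that start were not searched. H2-Ab1 and Ciita are named only. Of 32851 promoters, 7.23% held the Y letters, 0.676% the X letters and 0.0731% both. A match describes letters in a window and not a bound site.

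H2-DMa and H2-DMb1, the chains of the peptide exchange factor, had lower counts in gCap cells. H2-DMa was at 11.1 and 17.1 CPM (350 and 509 UMIs), a log2 ratio of 0.62 (0.42–0.82). In T or NK cells H2-DMa was at 33.6 CPM (13.5–69.3) and 20.8 CPM (6.77–48.7), on 7 and 5 UMIs. Its gCap level did not exceed these levels. Free RNA of unshared barcodes would account for 0.687 and 1.35 CPM of H2-DMa in gCap cells, and the planned profile for 10.8 and 9.86 CPM. Whether the H2-DMa UMIs of T or NK cells are background was not tested. H2-DMb1 was at 22.1 and 40.7 CPM in gCap cells (693 and 1212 UMIs), a log2 ratio of 0.89 (0.75–1.02), and had 0 and 2 UMIs in T or NK cells. Of the pair, only H2-DMb1 thus stood clear of the T or NK level in both libraries.

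A near-identical copy, H2-DMb2, divided ECs from B cells. H2-DMb1 made up 99% (97.95–99.6) of the H2-DMb UMIs in control and 99.3% (98.7–99.7) in metastatic gCap cells, where H2-DMb2 had 7 and 8 UMIs. In B cells the share of H2-DMb1 was 13.5% (8.06–20.7) and 15.6% (10.04–22.7). A high share was not particular to ECs. It was 100% in alveolar epithelial cells (15 and 12 UMIs) and in monocytes or macrophages (8 and 30 UMIs), and 96.4% and 75.9% in dendritic cells. Reads of these copies may be divided imperfectly by the counting, so the shares are uncertain, but the same counting gave opposite shares in ECs and B cells of the same libraries. H2-Oa and H2-Ob, whose products restrain the exchange factor in B cells, were at 223 and 323 CPM and at 370 and 444 CPM in B cells. In gCap cells H2-Oa had 5 and 2 UMIs, and H2-Ob had 51 and 44 (1.62 and 1.48 CPM). H2-Eb2 had 0 and 1 UMIs there.

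Ciita, the transactivator (ENSMUSG00000022504, GRCm38 chr16:10480059-10528418, plus strand), was at 6.72 CPM (5.84–7.69, 211 UMIs) in control and 15.2 CPM (13.8–16.6, 451 UMIs) in metastatic gCap cells, a log2 ratio of 1.17 (0.94–1.42). No single cell held more than 4 and 5 of these UMIs. In aerocytes Ciita had 25 and 52 UMIs, a log2 ratio of 1.33 (0.62–2.08), and in vein cells 9 and 37, a log2 ratio of 1.81 (0.73–3.05). Its level was thus higher in the metastatic library in each of these 3 classes. Artery cells held no Ciita UMI in either library, which allows up to 6.08 and 6.39 CPM, and T or NK cells none, which allows up to 14.4 and 12.5 CPM.

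Across the classes, the chains did not share the pattern of Cd74 fully. In aerocytes 7.73% of tested genes and 6 of 7 members passed the fold, with log2 ratios of 0.50 (0.33–0.68) for H2-Ab1, 0.64 (0.42–0.85) for H2-Eb1, 0.70 (0.15–1.26) for H2-DMa and 1.20 (0.78–1.62) for H2-DMb1. H2-Aa, at 0.42 (0.23–0.61), did not. Aerocytes thus resembled gCap cells in having the whole interval of every member above 0, from lower levels. Their H2-Aa level was 39.1 and 52.3 CPM and their H2-DMb1 level 6.67 and 15.3 CPM.

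In vein cells 10.2% of tested genes and 2 of 7 members, Cd74 and Ciita, passed the fold. H2-Aa was at 120 and 161 CPM, a log2 ratio of 0.42 (0.20–0.65), and H2-Eb1 at 90.9 and 127 CPM, a log2 ratio of 0.48 (0.22–0.75). H2-Ab1, at 113 and 119 CPM (0.08, -0.17 to 0.33), H2-DMb1, at 37.2 and 40.4 CPM (0.12, -0.32 to 0.56), and H2-DMa (0.28, -0.42 to 0.99) had intervals that included 0. In vein cells, then, the invariant chain and the transactivator had the highest ratios of the members and H2-Ab1 the lowest. Medians over the members were 0.70 in aerocytes, 0.42 in vein cells and 0.57 in artery cells, beside medians of 0.03, 0.03 and 0.04 over all genes tested.

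Artery cells had 4 members with enough UMIs, of which 2, Cd74 and H2-Aa (9 and 17 UMIs, 0.99, -0.26 to 2.34), passed the fold that 16% of tested genes passed. H2-Ab1 had 20 and 17 UMIs there (-0.16, -1.19 to 0.84) and H2-Eb1 12 and 15 (0.39, -0.80 to 1.62). All 4 intervals included 0, and with 63 and 58 cells no difference was detectable. The summed chains, at 83.1 CPM (59.7–113) and 104 CPM (77.2–138), were nevertheless above the T or NK level of 14.4 CPM (2.97–42.1) in the control library, whereas the intervals overlapped in the metastatic library, where T or NK cells had 45.9 CPM (22.9–82.1).

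**Figure D2:**
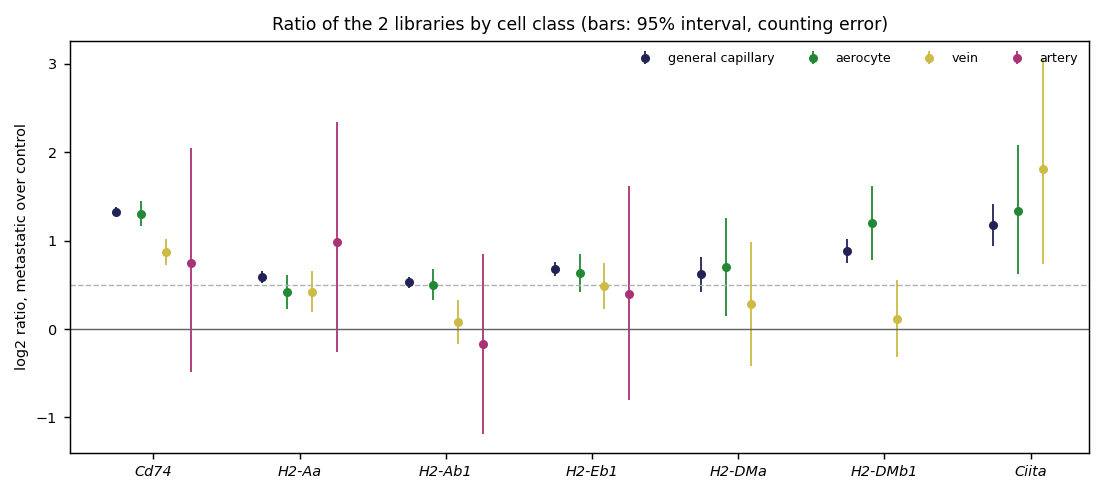
Log2 ratio of the metastatic to the control library for each member in gCap, aerocyte, vein and artery cells, with exact binomial intervals as bars. The dashed line marks the fold of 0.5, and a member with fewer than 20 UMIs over both libraries in a class has no point. Cd74 and Ciita lay above the line in all classes drawn, whereas H2-Ab1 ranged from 0.53 in gCap to -0.16 in artery cells.

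Because Cd74 and the chains had different ratios, the UMIs of Cd74 were set against those of H2-Aa, H2-Ab1 and H2-Eb1 summed. In gCap cells there were 0.474 (0.456–0.492) Cd74 UMIs per chain UMI in the control and 0.791 (0.770–0.813) in the metastatic library. Aerocytes had 0.486 (0.440–0.535) and 0.844 (0.782–0.911), and vein cells 0.791 (0.707–0.886) and 1.15 (1.06–1.25). All 3 classes thus held more Cd74 per chain UMI in the metastatic library. B cells had 1.54 (1.45–1.64) and 1.497 (1.41–1.59), with overlapping intervals, and so had alveolar epithelial cells at 2.35 (2.03–2.73) and 2.50 (2.12–2.96). Dendritic cells, 3 and 4 in number, had 0.753 (0.702–0.809) and 1.16 (1.09–1.23), higher in the metastatic library as in ECs, and monocytes or macrophages, 7 and 6 in number, had 2.06 (1.45–2.98) and 1.21 (1.10–1.33), lower in it. The ratio is of counts and does not compare the RNA amounts of different genes.

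The share of cells with a Cd74 UMI was compared at equal depth. Such a share rises with the Cd74 level of each cell, so it cannot tell more cells with Cd74 from more Cd74 per cell. Cells were thinned at random to 2000 UMIs, which left out 73 control and 58 metastatic gCap cells. A Cd74 UMI was then found in 14.5% (13.6–15.5, 711 of 4893) of control and 29.7% (28.4–31.1, 1313 of 4416) of metastatic gCap cells, a difference of 15.2 percentage points. At full depth, with a median of 5927.5 UMIs in control and 6245.5 UMIs in metastatic gCap cells, 26.3% (25.1–27.5) and 48.5% (47.0–49.96) of cells held Cd74. In T or NK cells the thinned shares were 5.56% (0.680–18.7) and 2.27% (0.0575–12.0), and the unthinned ones 8.33% and 9.09%, with median depths of 5746.5 and 5195 UMIs. The metastatic gCap share was above the background at both depths, whereas the thinned control share was within the wide interval of the 36 background cells.

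The thinned share was 7.86% (6.48–9.43) and 12.1% (10.2–14.2) in aerocytes and 23.8% (18.6–29.6) and 44.6% (38.8–50.5) in vein cells. The aerocyte intervals overlapped those of T or NK cells in both libraries, and the vein interval in the control library. Aerocytes were thus not separated from the few background cells by this share. By level they were, with Cd74 at 54.5 CPM (50.3–58.97) and 135 CPM (127–142), where the T or NK intervals ended at 42.1 and 42.7 CPM. Artery cells, at 4.76% and 1.72%, were at the background. Among the chains, the unthinned share of gCap cells with a UMI was 31.9% and 44.0% for H2-Aa, 36.4% and 46.5% for H2-Ab1 and 24.5% and 37.3% for H2-Eb1, beside 5.56% and 2.27%, 2.78% and 9.09%, and 0 of 36 (at most 9.74%) and 6.82% of T or NK cells. Detection thus followed the levels, with every chain found in a larger share of metastatic gCap cells.

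Counts per cell spread widely in both libraries. Of the thinned gCap cells, 85.5% of control and 70.3% of metastatic cells had no Cd74 UMI, 8.99% and 15.5% had 1, 3.90% and 8.99% had 2 to 3, and 1.47% and 4.51% had 4 to 7. Cells with 8 or more numbered 8 (0.163%) and 31 (0.702%). Every bin above 0 was fuller in the metastatic library. The 10% of gCap cells with the most Cd74 held 83.2% of its UMIs in the control and 63.8% in the metastatic library, and the top 1% held 23.9% and 13.7%, around means of 0.269 and 0.661 UMIs per cell. The highest unthinned gCap cell had 41 and 122 Cd74 UMIs.

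**Figure D3:**
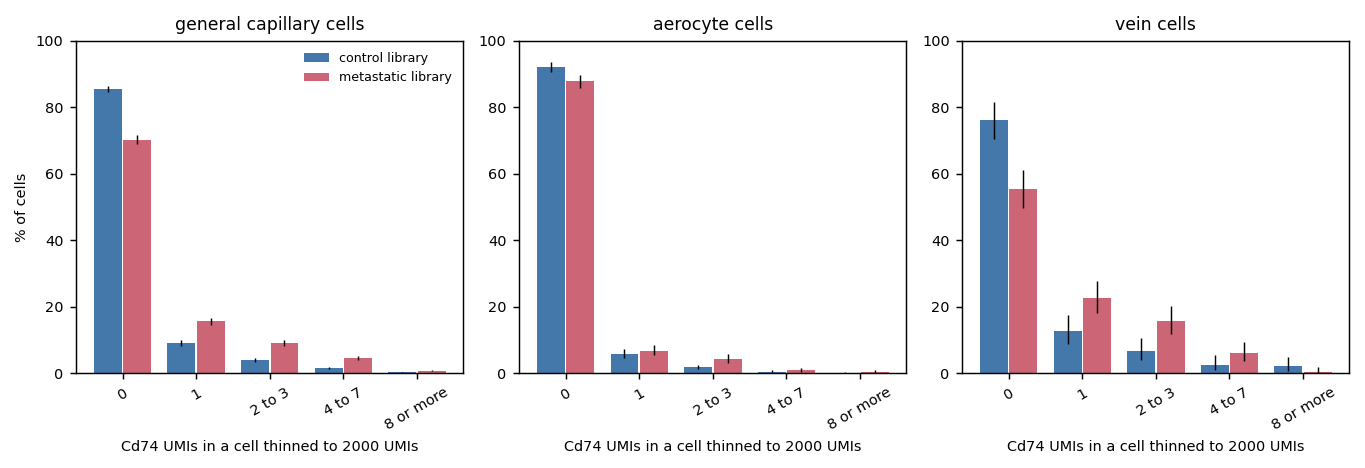
Share of gCap, aerocyte and vein cells (%, linear axis) by the number of Cd74 UMIs in a cell thinned to 2000 UMIs, in the control library (blue) and the metastatic library (red), with Clopper-Pearson intervals. The bar at 0 UMIs was shorter in the metastatic library in all 3 classes, 70.3% beside 85.5% in gCap cells, while the bars at 1, 2 to 3 and 4 to 7 UMIs were taller. At 8 or more UMIs vein cells had the opposite order, 2.05% (5 cells) in the control and 0.338% (1 cell) in the metastatic library.

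Cells with more Cd74 also carried more of the chains. In control gCap cells H2-Aa, H2-Ab1 and H2-Eb1 summed were at 218 CPM (208–228) with no Cd74 UMI, 472 CPM (427–519) with 1, 809 CPM (721–904) with 2 to 3, 1257 CPM (1080–1454) with 4 to 7 and 1938 CPM (1316–2750) with 8 or more. The metastatic levels were 270 CPM (257–283), 556 CPM (517–597), 843 CPM (780–909), 1249 CPM (1141–1364) and 1871 CPM (1546–2244). In the bin without Cd74 the metastatic interval lay above the control one. The intervals of the libraries overlapped in every bin from 1 Cd74 UMI upward, at 1 UMI only narrowly (up to 519 CPM and from 517 CPM). Overlap does not show equal levels, and the difference within a bin was not tested. The H2-DM chains had the same gradient, from 26.3 CPM and 36.1 CPM at 0 to 167 CPM and 171 CPM at 4 to 7 Cd74 UMIs. In metastatic vein cells the chains were at 250, 575, 598 and 667 CPM from 0 to 4 to 7 Cd74 UMIs.

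Leukocyte RNA was followed along the same bins, since B cells, dendritic cells and macrophages carry class II at far higher levels. Over 20 markers of B, T or NK, monocyte, macrophage and dendritic cells, gCap cells with no Cd74 UMI had 12.1 CPM (9.84–14.7) and 11.4 CPM (8.94–14.4), and cells with 4 to 7 had 6.94 CPM (0.176–38.7) and 15.1 CPM (5.53–32.8). The values at 8 or more, 125 CPM (15.1–452) and 48.4 CPM (9.98–141), rest on 2 and 3 UMIs, and 12.5% and 9.68% of these cells held a leukocyte marker UMI, beside 2.37% and 2.13% of cells with no Cd74. The part of leukocyte RNA in this highest bin was not tested. In that bin Ptprc, Coro1a, Laptm5, Tyrobp and Cd52, genes used across leukocytes, summed to 188 CPM (38.7–548) and 96.8 CPM (35.5–211), on 3 and 6 UMIs, beside 24.2 CPM and 33.5 CPM in cells with no Cd74. At 4 to 7 Cd74 UMIs these 5 genes had 1 and 18 UMIs, 6.94 CPM (0.176–38.7) and 45.2 CPM (26.8–71.5). The B cell markers Cd79a, Cd79b and Ms4a1 had no UMI in the 72 control and 199 metastatic gCap cells of that bin. The intervals reach 25.6 and 9.27 CPM, above the 1.32 and 2.74 CPM in cells with no Cd74, so this separates little. At 8 or more Cd74 UMIs the B cell markers had 0 and 1 UMIs. The EC markers Pecam1, Cdh5, Cldn5, Tie1 and Kdr summed to between 4860 and 5407 CPM across all bins and both libraries.

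**Figure D4:**
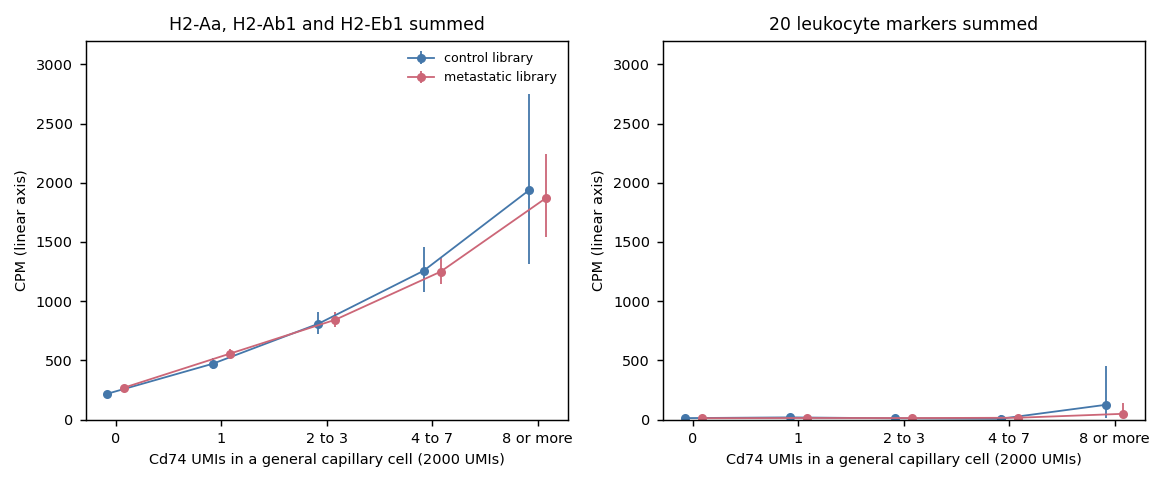
H2-Aa, H2-Ab1 and H2-Eb1 summed (left) and 20 leukocyte markers summed (right), both in CPM on the same linear axis, in gCap cells binned by their Cd74 UMIs after thinning to 2000 UMIs; bars are Poisson intervals. The chains climbed from 218 and 270 CPM at 0 Cd74 UMIs to 1938 and 1871 CPM at 8 or more in the control (blue) and metastatic (red) library, whereas the leukocyte markers went from 12.1 and 11.4 CPM to 125 and 48.4 CPM, the last on 2 and 3 UMIs.

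Over all gCap cells the 20 markers summed to 11.5 CPM and 11.3 CPM (360 and 336 UMIs, 188 and 166 of them Clec9a), a log2 ratio of -0.02 (-0.24 to 0.20), and Flt3 and Siglech had no UMI. The pan-leukocyte genes stood higher in the metastatic library. Ptprc, Coro1a, Laptm5, Tyrobp and Cd52 summed to 24.5 and 36.5 CPM in gCap cells, 9.69 and 23.9 CPM in aerocytes and 11.5 and 63.9 CPM in vein cells, log2 ratios of 0.57 (0.44–0.71), 1.30 (0.97–1.65) and 2.48 (1.86–3.15). Without the cells that held any UMI of these 5 genes, the log2 ratio of Cd74 was 1.33 in gCap cells, 1.37 in aerocytes and 0.93 in vein cells, and 7 members passed the fold in gCap cells, beside 7.13% of the genes tested in that setting.

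The factors that act on class II promoters with Ciita were compared next. None of the 7 genes Rfx5, Rfxap, Rfxank, Nfya, Nfyb, Nfyc and Creb1 passed the fold in gCap cells, beside 8.18% of all tested genes. The median log2 ratio of the 7 was 0.12. Rfxank was highest at 0.36 (0.15–0.58) and Rfxap lowest at -0.11 (-0.23 to 0.01), while Rfx5, whose product binds the X box, had 219 and 220 UMIs (0.09, -0.19 to 0.36). All 7 intervals lay below that of Ciita.

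Of the genes that process the invariant chain or turn class II over, 1 of 6 tested passed the fold in gCap cells. Of all genes tested there 8.18% passed, and the median log2 ratio of the 6 was 0.08. March1, a ubiquitin ligase that removes class II from the surface, had 18 and 43 UMIs (1.34, 0.51 to 2.22). Ctsl and Lgmn, which encode endosomal proteases, were at -0.12 and 0.09. Ctss, which cleaves the invariant chain in professional presenting cells, had 171 and 213 UMIs in gCap cells (0.40, 0.10 to 0.69), of which 1 cell in each library held 55 and 46, and in vein cells 5 and 59 UMIs, where the pan-leukocyte genes also stood higher.

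Costimulatory genes divided by level. Cd80 and Cd86, the ligands of CD28 on professional presenting cells, had 3 and 5 and 3 and 1 UMIs in gCap cells, and Pdcd1lg2 none, which allows up to 0.0955 and 0.101 CPM. The 3 with enough UMIs all passed the fold, beside 8.18% of all tested genes. Cd40 was at 15.2 and 24.2 CPM (0.67, 0.50 to 0.84), the inhibitory ligand Cd274 at 11.2 and 16.7 CPM (0.58, 0.38 to 0.78), and Icosl at 0.891 and 2.05 CPM on 28 and 61 UMIs (1.20, 0.53 to 1.90). In aerocytes 2 of 3 and in vein cells 3 of 3 passed the fold, beside 7.73% and 10.2% of all tested genes. In vein cells all 3 intervals included 0.

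Of 11 interferon gamma genes, which cover its receptor, signaling and response, 3 passed the fold upward and 1 downward in gCap cells. Of all tested genes 8.18% passed it upward and 4.80% downward. The median log2 ratio of the 11 genes was 0.31. Gbp2, an interferon-inducible GTPase, was at 74.3 and 126 CPM (0.76, 0.69 to 0.84). Irf8 had 95 and 191 UMIs (1.09, 0.72 to 1.46). Ifngr1, Jak1, Jak2, Irf1 and Socs1 lay between 0.28 and 0.38, with Ifngr2 at 0.18 and Irf2 at 0.06, all short of the fold. These genes mostly stood higher by smaller ratios than Ciita. The chemokines rested on few cells. Cxcl10 had 384 and 932 UMIs (1.36, 1.18 to 1.53) with up to 192 and 196 in 1 cell, and Cxcl9 had 114 and 15 (-2.85, -3.73 to -2.07), 93 of the 114 in 1 control cell.

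MHC class I genes, which present cytosolic peptides, served as the neighboring pathway. In gCap cells 1 of 5 passed the fold, beside 8.18% of all tested genes. The median log2 ratio of the 5 was 0.32. H2-K1 was at 1696 and 2120 CPM (0.32, 0.31 to 0.34), Tap1 at 0.36, B2m at 0.14 and H2-D1 at 0.04. Nlrc5, the class I counterpart of Ciita, had 167 and 224 UMIs (0.50, 0.21 to 0.80).

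**Figure D5:**
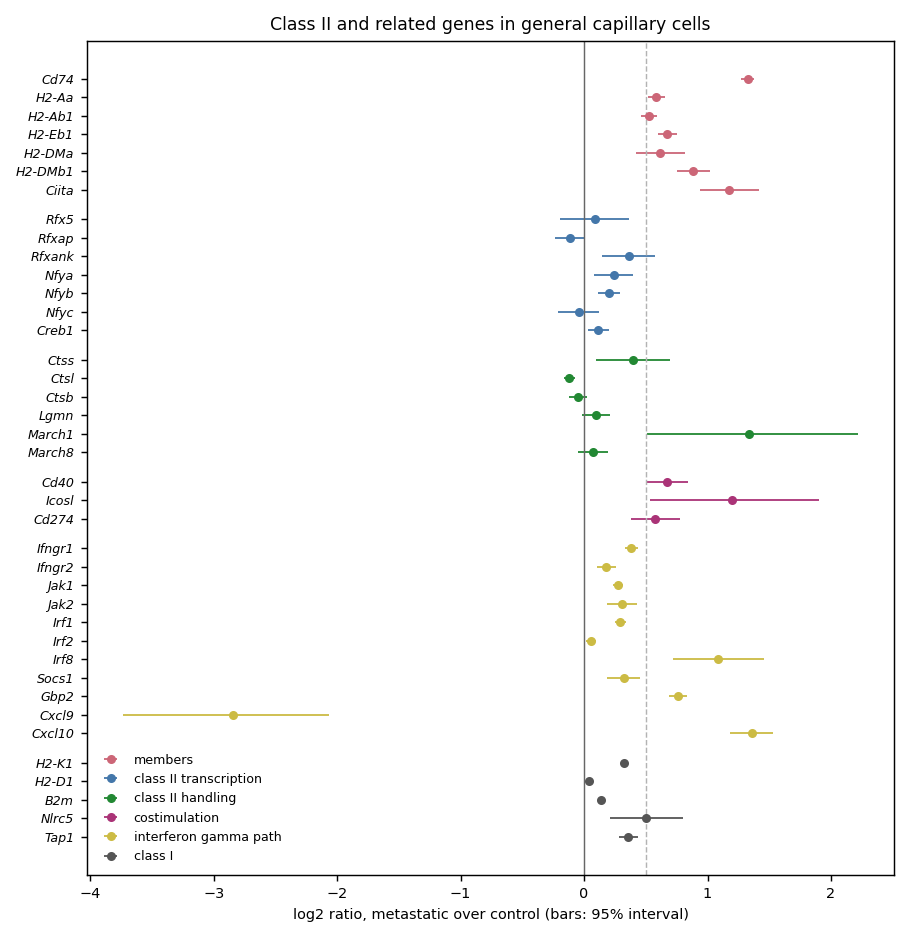
Log2 ratio of the metastatic to the control library in gCap cells for the members and for genes of class II transcription, class II handling, costimulation, the interferon gamma path and class I with at least 20 UMIs, with exact binomial intervals; the dashed line marks 0.5. The members and the 3 costimulatory genes all lay past the line, the transcription partners all short of it, and Cxcl9 at -2.85 rests on 1 cell. Of all tested genes 8.18% lay past the line.

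Class II was also set against 2 states of gCap cells after thinning. Cells with a UMI of Inhbb, an activin subunit gene that marks reactive capillary cells in the study, numbered 45 and 158. Their Cd74 level was 88.9 CPM (38.4–175) and 133 CPM (95.8–180), beside 135 CPM (128–143) and 338 CPM (325–350) in cells without Inhbb. In the metastatic library the cells with Inhbb were thus the lower ones, and the summed chains had the same order, at 212 CPM (164–269) and 429 CPM (415–443).

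Cells with at least 3 of 8 interferon-stimulated genes numbered 331 and 353. Their Cd74 level was 172 CPM (142–207) and 331 CPM (290–377), and that of the other gCap cells 132 CPM (125–140) and 330 CPM (318–343). A higher Cd74 level with interferon genes was seen in the control library but not in the metastatic one, where the values nearly coincided. The chains were at 341 CPM (298–389) and 479 CPM (429–533) with, and 278 CPM (267–289) and 416 CPM (402–431) without. The chain level was thus higher with interferon genes in both libraries. The intervals parted in the control library and overlapped narrowly in the metastatic one, and whether the libraries differ in this was not tested.

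The genes whose level was most like that of Cd74 over the 4 endothelial classes in both libraries (8 points) were sought by Pearson's r of log2(CPM + 1) among 6443 genes. They were Irgm1 (0.975), H2-Aa (0.970), Irf1 (0.970), Rel (0.961), H2-Eb1 (0.959), 9530082P21Rik (0.955), Socs1 (0.955), Atf3 (0.953), Rtp4 (0.946) and H2-DMb1 (0.944). H2-Ab1 was at rank 40 (0.910), and Ciita (0.939) and H2-DMa (0.881) were below the level required for ranking. Points of 1 library share its depth and its mice, so these values are descriptions.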

How the data were processed

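Lung cells sorted for PECAM1 were measured in 2 libraries. Per the file headers, the deposited values are raw UMI counts per gene and barcode, written by Cell Ranger 3.1.0. The authors mapped reads to mm10 and name Seurat for their analysis, while the annotation behind the counts is not given in the sources used here. Gene positions are from GENCODE M21 on GRCm38, the same assembly.

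Barcodes with 1000 to 5000 genes and under 20% mitochondrial UMIs were kept, and the mitochondrial limit removed 2 control and 0 metastatic barcodes. A class needed UMIs of at least 2 markers. Markers were Ednrb, Fibin and Tbx2 for aerocytes, Slc6a2, Car8 and Bst1 for vein, Gja5, Bmx and Fbln5 for artery, Gpihbp1, Aplnr, Kit and Lpl for gCap cells, and Cd79a, Cd79b and Ms4a1 for B cells. The gCap class required that the aerocyte, vein and artery rules were not met, so a cell with gCap markers could stay in another endothelial class. Apart from this, cells that met several class rules (109 and 97) or none (285 and 355) were left out. Doublets were kept in the main values and, as an alternative, the highest Scrublet scores (scanpy 1.11.5), 0.8% per 1000 cells, were left out.

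UMIs were summed per class and library and scaled to CPM with exact Poisson intervals. Ratios carry exact conditional binomial intervals and shares exact Clopper-Pearson intervals. A ratio was given for genes with at least 20 UMIs over both libraries, and a log2 ratio of 0.5 was the fold. The named genes are the members, their near relatives and 5 fixed lists, plus the 10 genes most like Cd74 with at least 20 CPM in at least 4 of 8 points. Members and lists were chosen with earlier results of these data known. Ifi30 is not analysed here. A gene of the interferon gamma list is not reported here. TMM factors came from edgeR 4.0.16. The scripts were tested on simulated data. Alternatives comprised other gene and mitochondrial minimums, scaling, doublets, leukocyte RNA, class rules, shared barcodes, free RNA, weighting of cells and thinning. Free RNA from unshared barcodes and the removal of cells with pan-leukocyte UMIs were chosen after seeing the data.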

Additional observations from a re-analysis of the deposited data

Results flagged for a closer look

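H2-Ab1 had a log2 ratio of -0.16 in artery cells and of 0.53 in gCap cells, so the libraries stood in the opposite order in these classes. The artery value rests on 20 control and 17 metastatic UMIs, its interval (-1.19 to 0.84) includes the gCap value, and the difference between the classes was not tested.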

How the results depend on the processing

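No paired analysis was possible because each group held 1 library, and no library could be left out for the same reason. Every log2 ratio of a member in gCap cells, and that of Cd74 in the other classes, stayed above 0 under each alternative that gave a value. Keeping ECs that also met a leukocyte or epithelial rule gave Cd74 ratios of 0.91 in gCap cells, 1.14 in aerocytes and 1.09 in vein cells and 0.49 for the summed chains. Subtracting the RNA of unshared barcodes gave 1.39 for Cd74 in gCap cells. Subtracting that of all barcodes with 11 to 50 UMIs gave 2.17 in vein cells, no value for Cd74 in the other classes (in control gCap cells the predicted 251 CPM exceeded the measured 131 CPM), nor for the summed chains, H2-Aa and H2-Eb1 in gCap cells, and 5.73 for H2-Ab1 and 4.42 for H2-DMa there, where little control RNA was left. The difference in the share of gCap cells with Cd74 was 10.3 points at 1000 UMIs and 22.2 without thinning, where cells are deeper. With a fold of log2 1 instead of 0.5, 2 members passed, and 270 genes (2.04%) instead of 1085. With no minimum beyond 1 UMI in each library 2179 of 16699 genes (13.05%) passed the fold of 0.5, and with a minimum of 100 UMIs 536 of 11055 (4.85%). Depth limits artery cells, with 10 and 16 Cd74 UMIs, most.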

Other observations

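Class II RNA was also measured in the few other cells of the sort. Alveolar epithelial cells (15 control and 11 metastatic cells), which include type II pneumocytes known to carry class II, had Cd74 at 2579 and 2472 CPM (log2 ratio -0.06, -0.23 to 0.11) and H2-Aa at 498 and 506 CPM. Dendritic cells, 3 and 4 in number, had Cd74 at 22819 and 33233 CPM. Monocytes or macrophages, 7 and 6 in number, had Cd74 at 928 and 13545 CPM and H2-Aa at 159 and 3985 CPM, and with so few cells these values describe single cells rather than a cell type.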
